A study of Mus musculus with 8 samples.

Results

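The genes described here are Rest and 8 genes for the corepressors through which its protein acts: Rcor1, Rcor2, Rcor3, Sin3a, Kdm1a, Hdac1, Hdac2 and Ehmt2. They were chosen by name, as the 9 of the 32567 genes in the RNA-seq table that carry these symbols. Poly-A RNA and, separately, small RNA were sequenced from mouse ESC (embryonic stem cells) and from their retinoic acid-treated derivatives (RA-DIFF), for a wild-type line and for one with the Hdh ex4/5 allele on both copies of the huntingtin gene Htt (Hdh ex4/5/ex4/5, called Htt-null). To make RA-DIFF cells, the lines were taken off feeder cells for 4 passages, spent 8 days as embryoid bodies with 5 µM retinoic acid from day 4, and were collected 2 h after plating. Each of the 4 conditions has 1 library per assay from 1 line per genotype, so no difference between stages or genotypes has a replicate check, and a line cannot be told apart from its genotype.

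REST is a zinc finger repressor that binds the RE1 element of neuronal genes and keeps them low in stem cells and in tissues other than brain. Its amino-terminal end recruits SIN3A, which carries the deacetylases HDAC1 and HDAC2. Its carboxy-terminal end recruits CoREST (RCOR1 and its relatives RCOR2 and RCOR3) with the same deacetylases, the H3K4 demethylase KDM1A (LSD1) and the H3K9 methyltransferase EHMT2 (G9a). As neurons form, REST falls and its targets are released, and huntingtin has been described as holding REST in the cytoplasm of neurons, which is why these genes are of interest in an Htt-null line.

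The element that REST reads is shown first, because the target genes followed below were compared by it. The RE1 consensus core, 17 bases long with any base allowed at the pair of positions in its middle, was searched on both strands within 10000 bp of every gene start on GRCm38, and 6 of the matches are printed below 5′ to 3′ on the strand of the match. The capitals mark the core and the lower case letters its flanks in the GRCm38 genome. The first 4 match the core exactly, and the matches at Gria2 and Srrm4 differ from it at 1 base.

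Stmn2: atTTCAGCACCACGGACAGcgct
Scn2a1: ctTTCAGCACCACGGACAGcacc
Chgb: atTTCAGCACCCCGGACAGctcc
Grin1: gcTTCAGCACCTCGGACAGcacc
Gria2: atTTTAGCACCGCGGACAGcgct
Srrm4: gtTTCAGCACTTCGGACAGcgcc

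The Stmn2 core lies at chr3:8508230-8508246 on the plus strand and that of Scn2a1 at chr2:65619964-65619980 on the plus strand, both upstream of the gene start. The Chgb core lies in an intron at chr2:132781794-132781810 on the plus strand, and that of Grin1 in an exon at chr2:25319018-25319034 on the minus strand. The Gria2 match lies upstream at chr3:80802989-80803005 on the plus strand, and that of Srrm4 in an exon at chr5:116591499-116591515 on the minus strand. None of the 9 genes held a match within 10000 bp of its start, exact or with 1 mismatch, against 67 (0.352%) and 304 (1.60%) of the 19027 protein-coding genes of the table. An absent match says only that these letters are not in the window.

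The RNA-seq libraries held between 63617410 and 110569127 counts, so 3 counts correspond to 0.0271 to 0.0472 CPM (counts scaled to a common library total), and the 9 genes had between 640 and 42851 counts in a library. All 9 were among the 15492 genes with an average log2 CPM above 0, and a gene is said here to pass the limit when its log2 ratio of CPM lies beyond 0.75 in either direction. Htt itself measured 166 CPM in wild-type and 111 CPM in Htt-null ESC, but 73.3 CPM in RA-DIFF cells labelled wild-type and 98.7 CPM in those labelled Htt-null, so it went against the labels in RA-DIFF. The log2 ratios of Htt, Htt-null over wild-type, were -0.58 for ESC and 0.43 for RA-DIFF. Both were inside the limit, and each rests on 1 library per condition. In the readable part of the expression table that accompanies the study, the values of wild-type RA-DIFF cells followed the deposited library labelled Htt-null and the reverse, while both ESC libraries followed their own labels. In that part, the study's own directions between genotypes in RA-DIFF are thus those of the exchanged labels. Which labelling is right was not settled here, so the main RNA-seq ratios and counts that rest on the RA-DIFF libraries are given as labelled and, where marked as exchanged, with these 2 labels exchanged. An exchange turns the sign of every Htt ratio in RA-DIFF and leaves those of ESC as they are. Levels and shares are given by the deposited label. Summed over 5 pluripotency genes, CPM was 3011 and 2991 in wild-type and Htt-null ESC and 42.9 and 11.6 in the RA-DIFF libraries labelled wild-type and Htt-null. For 5 neuron genes (Dcx, Map2, Elavl3, Elavl4 and Nefl) the sums were 36.5, 40.4, 1591 and 833 CPM in the same order, and for 4 neural progenitor genes 23.8, 38.4, 2004 and 2182 CPM, although of these 4 Pax6 and Sox1 were lower (Htt ratios -0.79 and -0.89 in RA-DIFF as labelled) while Nes and Fabp7 had 0.53 and 0.12. The 6 genes of connective tissue and smooth muscle summed to 31.4 and 16.3 CPM in ESC but 539 and 2167 CPM in RA-DIFF in the same order, so the 2 RA-DIFF libraries differed in these genes.

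Rest (ENSMUSG00000029249, chromosome 5, 77265491 to 77286432 on the plus strand of GRCm38) measured 196 CPM in wild-type ESC, 166 CPM in Htt-null ESC, 64.4 CPM in RA-DIFF cells labelled wild-type and 97.6 CPM in those labelled Htt-null. Both ESC libraries were thus above both RA-DIFF libraries, and the RA-DIFF library labelled wild-type was the lowest. The RA ratio, the log2 ratio of RA-DIFF over ESC, was -1.61 in the libraries labelled wild-type, a level 3.05-fold lower, and -0.76 in those labelled Htt-null, 1.70-fold lower and only just past the limit. With the RA-DIFF labels exchanged the ratios were -1.01 and -1.37, so every pairing of an RA-DIFF with an ESC library passed the limit of 0.75, although -0.76 would not pass a limit of 1 and its 95% counting interval (-0.80 to -0.73) spans -0.75. In these bulk samples, fewer cells with a transcript and less of it per cell cannot be told apart.

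Between genotypes, Rest differed less. Its Htt ratio, the log2 ratio of the Htt-null library over its wild-type counterpart, was -0.24 for ESC and 0.60 for RA-DIFF as labelled (-0.60 with the labels exchanged), and neither passed the limit. The 95% counting intervals, -0.28 to -0.21 and 0.56 to 0.65, leave out 0, but they cover counting error only and say nothing of the spread between cultures. Among the 5 genes whose pattern over the 4 libraries was nearest to that of Rest, by the distance between centred log2 CPM values, were Eda2r (0.0798), Swap70 (0.0893), Pura (0.0968) and Capn12 (0.103). With 4 libraries this is a description of how they were ordered and no more.

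**Figure D1:**
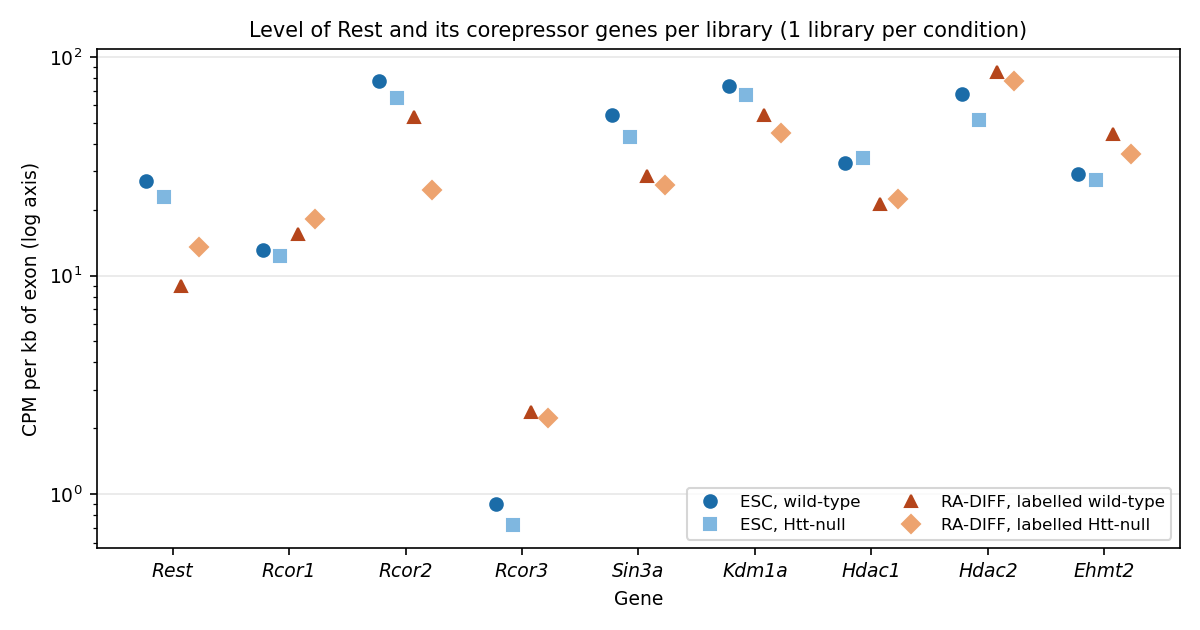
Level of each of the 9 genes in the 4 RNA-seq libraries, in CPM per kb of exon on a log axis, with 1 point per library and no error bars because each condition has 1 library. Rest stands at 27.2 and 22.97 in ESC and at 8.91 and 13.5 in RA-DIFF, and Rcor3 lies below the other 8 genes in every library.

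The 3 CoREST genes differed in direction. Rcor2 (ENSMUSG00000024968, chromosome 19, 7267325 to 7275225, plus strand), the paralogue best known from stem cells and neural progenitors, measured 245 CPM in wild-type ESC, 205 CPM in Htt-null ESC, 167 CPM in RA-DIFF cells labelled wild-type and 77.8 CPM in those labelled Htt-null. The last library stood below the other three. Its RA ratio was -0.55 in the libraries labelled wild-type and -1.40 in those labelled Htt-null (-1.66 and -0.30 with the labels exchanged). In RA-DIFF its Htt ratio was -1.10 as labelled, the only one of the 9 past the limit in a comparison of genotypes, and 1.10 with the labels exchanged. With edgeR's exact test at an assumed dispersion of 0.1 added to the limit, this call was lost and 0 of the 9 genes were called between genotypes. In ESC the Htt ratio was -0.26.

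Rcor1 (ENSMUSG00000037896, chromosome 12, 111039351 to 111115901, plus strand), the founding CoREST gene, measured 74.7 and 69.8 CPM in wild-type and Htt-null ESC and 88.1 and 103 CPM in the RA-DIFF libraries labelled wild-type and Htt-null. Its RA ratios, 0.24 and 0.56 (0.46 and 0.34 exchanged), stayed inside the limit. Rcor3 (ENSMUSG00000037395, chromosome 1, 192098546 to 192138062, minus strand), the scarcest of the 9 genes per length, measured 12.3 and 9.81 CPM in ESC and 32.5 and 30.4 CPM in RA-DIFF in the same order. It was the one member higher in RA-DIFF past the limit, with RA ratios of 1.40 and 1.63 (1.31 and 1.72 exchanged). The annotated exons of Rcor3 span 13622 bp in all, the most of the 9 genes, and its level per kb rests on that length. Its RA-DIFF libraries lay close together, with an Htt ratio of -0.10 (0.10 exchanged). The methods name default settings beside the counting mode, and the HTSeq default counts by strand, but how it treated these dUTP libraries was not tested. Rcor3 shares 336 bp of exon with the antisense gene Gm10516, which had at most 129 counts where Rcor3 had 3639, and 667 bp with Gm26879, which had at most 8.

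Of the summed level of the CoREST genes per kb of exon, Rcor2 held the largest share in all 4 libraries. It made up 84.7% of the sum in wild-type and 83.3% in Htt-null ESC, 74.7% in RA-DIFF cells labelled wild-type and 54.8% in those labelled Htt-null. The share of Rcor1 went the other way, at 14.3% and 15.7% in ESC and 21.9% and 40.3% in RA-DIFF in the same order, and that of Rcor3 was 0.981%, 0.923%, 3.37% and 4.96%. The summed level itself was 91.7 and 78.0 CPM per kb in ESC and 70.8 and 45.0 CPM per kb in RA-DIFF. By counts with no correction for length, Rcor1 held 48.8% and Rcor2 36.8% in RA-DIFF cells labelled Htt-null, so there the order of these genes depends on the length correction.

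**Figure D2:**
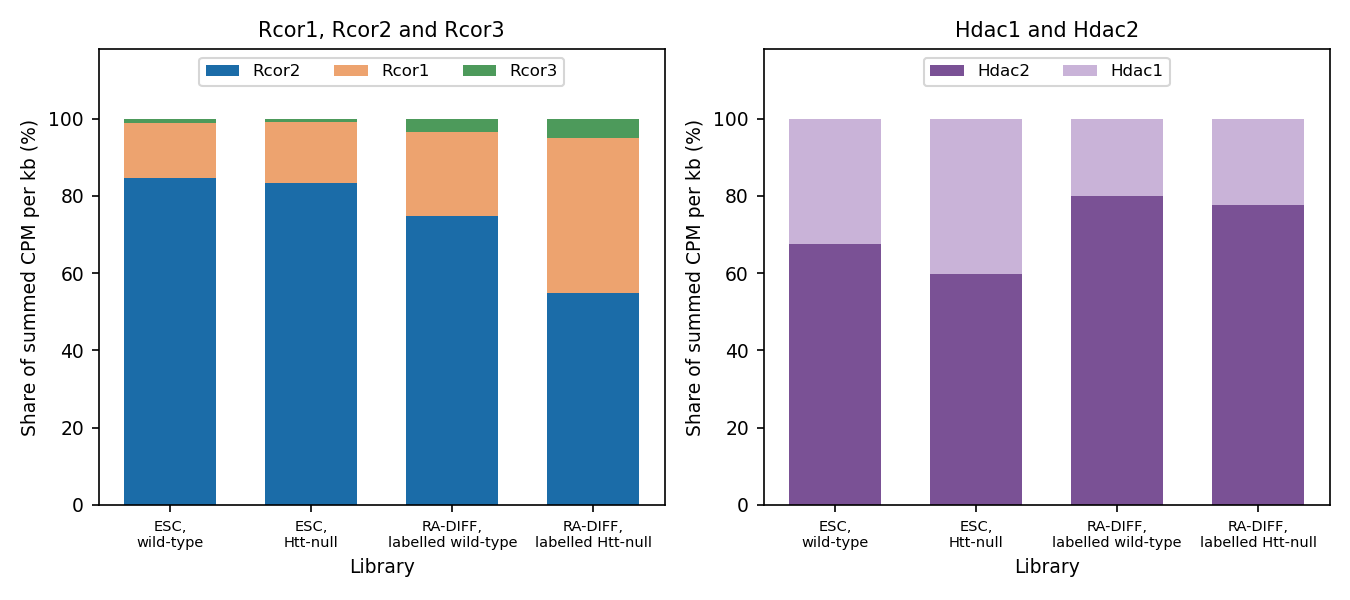
Share of each gene in the summed CPM per kb of exon of Rcor1, Rcor2 and Rcor3 (left) and of Hdac1 and Hdac2 (right), as stacked bars from 0 to 100% for each of the 4 libraries. Rcor2 takes 84.7% in wild-type ESC and 54.8% in RA-DIFF cells labelled Htt-null, and Hdac2 takes between 59.8% and 80.1%.

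Sin3a (ENSMUSG00000042557, chromosome 9, 57072040 to 57128366, plus strand), the scaffold at the amino-terminal end of REST, measured 292 CPM in wild-type ESC, 233 CPM in Htt-null ESC, 153 CPM in RA-DIFF cells labelled wild-type and 139.5 CPM in those labelled Htt-null. Both RA-DIFF libraries were lower than both ESC libraries. Its RA ratios were -0.93 in the libraries labelled wild-type, past the limit, and -0.74 in those labelled Htt-null, just inside it (-1.07 and -0.60 exchanged). The call as labelled wild-type was lost at a limit of 1 and with the exact test at a dispersion of 0.1, and in Htt-null the counting interval (-0.77 to -0.70) spans the limit and scaling by library size alone gave a call (-0.81). The Htt ratios of Sin3a were -0.33 for ESC and -0.14 for RA-DIFF (0.14 exchanged). The antisense gene Man2c1os shares 205 bp of exon with Sin3a and had between 71 and 112 counts.

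The chromatin enzymes stayed inside the limit in all 4 comparisons. Kdm1a (ENSMUSG00000036940, chromosome 4, 136550540 to 136602723, minus strand) measured 382 and 345 CPM in wild-type and Htt-null ESC and 281 and 233 CPM in the RA-DIFF libraries labelled wild-type and Htt-null, with RA ratios of -0.44 and -0.57 (-0.71 and -0.30 exchanged). Ehmt2 (ENSMUSG00000013787, chromosome 17, 34898469 to 34914052, plus strand) lay the other way, at 160 and 149 CPM in ESC and 245 and 198 CPM in RA-DIFF, with RA ratios of 0.61 and 0.41 (0.31 and 0.71 exchanged). For Kdm1a and Ehmt2 the Htt ratios were -0.14 and -0.10 for ESC and -0.27 and -0.30 for RA-DIFF as labelled (0.27 and 0.30 exchanged).

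The deacetylases lay in opposite directions. Hdac1 (ENSMUSG00000028800, chromosome 4, 129516104 to 129542713, minus strand) measured 113 and 119 CPM in wild-type and Htt-null ESC and 73.1 and 76.8 CPM in the RA-DIFF libraries labelled wild-type and Htt-null, and its RA ratios were -0.62 and -0.63 (-0.55 and -0.70 exchanged). Hdac2 (ENSMUSG00000019777, chromosome 10, 36974544 to 37001889, plus strand) measured 303 and 229 CPM in ESC and 382 and 349 CPM in RA-DIFF, with RA ratios of 0.33 and 0.60 (0.20 and 0.74 exchanged). Per kb of exon, Hdac2 made up 67.5% and 59.8% of the pair in ESC and 80.1% and 77.8% in RA-DIFF, so it was the higher of the pair in every library. Hdac1 has a processed pseudogene, Gm10093, that is 99.4% identical to it over 1444 bp and could share its reads. The processed pseudogenes AC125456.1 (96.3% over 1450 bp) and Gm4864 (94.6% over 1469 bp) are not among the counted genes, so the sum below leaves them out. Gm10093 had 1543 and 1355 counts in ESC and 2250 and 2118 in RA-DIFF, between 15.8% and 28.0% of the counts of Hdac1. With both summed, a check added after the values were seen, the RA ratios of Hdac1 were -0.49 and -0.50 (-0.41 and -0.58 exchanged).

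As a group, 1 member was higher (Rcor3) and 2 were lower (Rest and Sin3a) past the limit in RA-DIFF over ESC in the libraries labelled wild-type, against 33.9% of all tested genes higher and 26.1% lower. In the libraries labelled Htt-null 1 was higher (Rcor3) and 2 were lower (Rest and Rcor2), against 34.3% and 24.8%. With the RA-DIFF labels exchanged the counts were 1 higher and 3 lower in wild-type (background 34.4% and 25.2%) and 1 higher and 1 lower in Htt-null (background 33.6% and 25.5%). For 9 genes these counts are near or under the background and are no result about them. The median log2 ratio of the 9 genes was -0.44 and -0.57, where that of all tested genes was 0.12 and 0.17, and with the labels exchanged it was -0.55 and -0.30. The 2 RA-DIFF libraries did not overlap the 2 ESC libraries for any of the 9 genes, 4 higher and 5 lower, but that held for 46.4% (higher) and 37.1% (lower) of all tested genes.

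No member passed the limit between genotypes in ESC, where 5.14% of all tested genes were higher in Htt-null cells and 3.47% lower. Of the 9, 8 had a ratio below 0, as had 54.7% of all tested genes, with a median of -0.24 where the median of all tested genes was -0.04, and Hdac2 was the lowest at -0.40. In RA-DIFF 0 members were higher and 1 was lower (Rcor2) as labelled, against 11.7% higher and 8.99% lower among all tested genes. The median there was -0.13 (0.13 exchanged, with Rcor2 then 1 higher and 0 lower). The RA and Htt comparisons share libraries, so these values stand side by side and are not independent of each other.

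**Figure D3:**
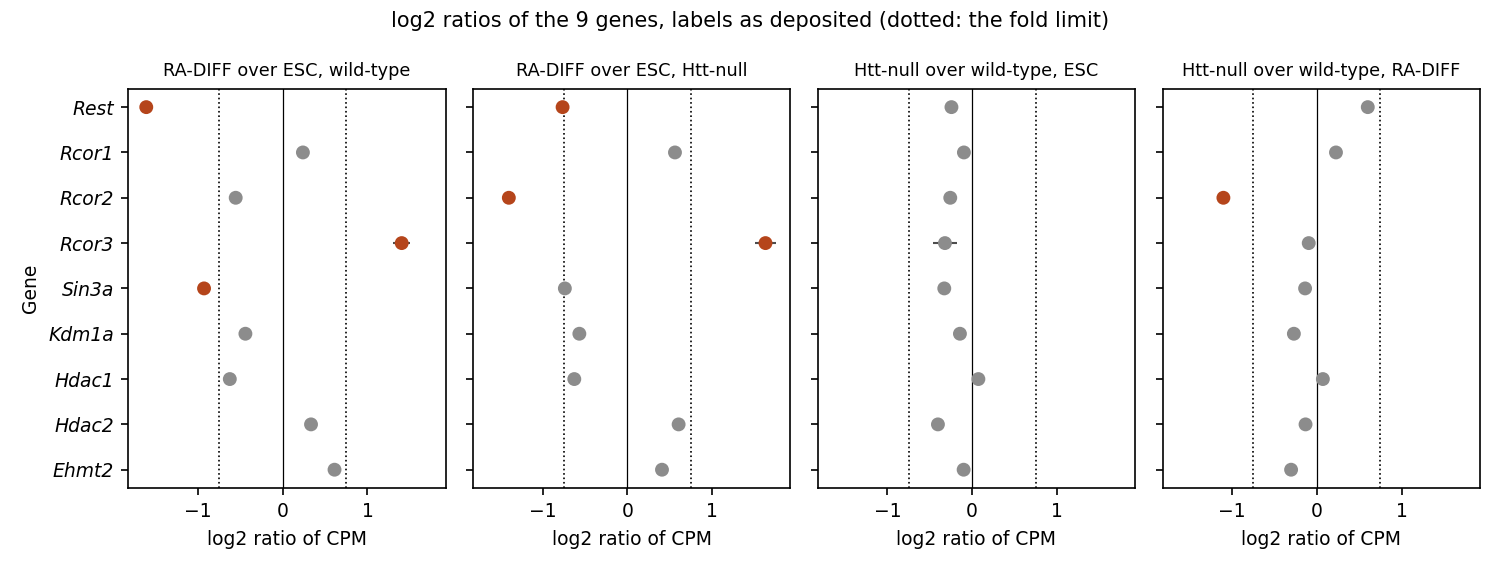
Log2 ratio of CPM of the 9 genes in the 4 comparisons, with the RA-DIFF labels as deposited, dotted lines at the limit of 0.75 in either direction, red points past it and horizontal bars for the 95% counting interval. Rest, Rcor2 and Sin3a lie to the left and Rcor3 to the right in RA-DIFF over ESC, and only Rcor2 in RA-DIFF, at -1.10, is past the limit between genotypes.

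Around these 9 genes, 38 further genes of the same machinery were followed, and all 38 were tested. In RA-DIFF over ESC 17 (44.7%) were higher and 4 (10.5%) lower in the libraries labelled wild-type (median log2 ratio 0.62), against the 33.9% and 26.1% of all tested genes. In those labelled Htt-null 14 (36.8%) were higher and 3 (7.89%) lower (median 0.39), against 34.3% and 24.8%. With the RA-DIFF labels exchanged 14 were higher and 3 lower in wild-type, and 17 and 3 in Htt-null. Adding edgeR's exact test at an assumed dispersion of 0.1 left 8 higher and 2 lower as labelled wild-type and 7 higher and 0 lower as labelled Htt-null. The shares of all tested genes given here are for the limit without that test, so they are no background for these counts. Of the genes named below, the test ended the calls of Hdac3, Hdac8 and Cdyl in both, that of Ctbp2 in wild-type and those of Usp7 and Usp15 in Htt-null. Between genotypes none passed the limit in ESC, where 5.14% of all tested genes were higher and 3.47% lower, and in RA-DIFF 0 were higher and 1 (2.63%) was lower as labelled, against 11.7% and 8.99%. That gene was Srrm4, a neural splicing factor that acts on the Rest transcript and itself carries the RE1 match printed above, the only one of the 38 to do so. It measured 2.13 and 2.61 CPM in wild-type and Htt-null ESC and 71.2 and 28.5 CPM in the RA-DIFF libraries labelled wild-type and Htt-null. Its log2 ratios were 5.05 and 3.44 over the RA step (3.73 and 4.76 exchanged) and -1.32 between genotypes in RA-DIFF (1.32 exchanged), so it was highest in the library in which Rest was lowest.

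Of 8 further genes of the Sin3 complex, 2 were higher and 0 lower past the limit in RA-DIFF as labelled wild-type. As labelled Htt-null 0 were higher and 0 lower (exchanged, 2 and 0 higher). Of 9 genes of the CoREST complex and its relatives, 2 were higher and 1 lower, and 2 and 0 (exchanged, 2 and 2 higher). Of 8 partners that REST recruits outside these 2 main complexes, 5 were higher as labelled wild-type and 6 as labelled Htt-null (5 and 7 exchanged), where 33.9% and 34.3% of all tested genes were. Among them were Smarcc2, a subunit of the BAF chromatin remodeller (log2 ratios 2.86 and 2.49, exchanged 2.57 and 2.78), and Ctdspl, a small phosphatase of RNA polymerase (1.99 and 2.69, exchanged 2.36 and 2.33). Of the CoREST partners, the corepressor Ctbp1 was higher (2.06 and 1.76, exchanged 1.84 and 1.98). Its paralogue Ctbp2 was lower in the libraries labelled wild-type (-0.81) and had a ratio of -0.21 in the others, and with the labels exchanged it stayed inside the limit (-0.34 and -0.68). The other class I deacetylases, Hdac3 and Hdac8, were both past the limit, with 1.23 and 1.18 in the libraries labelled wild-type (1.07 and 1.03 exchanged), where Hdac1 and Hdac2 were inside it. Usp7 and Usp15, deubiquitinases that keep REST from being degraded, were lower (Usp7 -1.36 and -1.11, Usp15 -1.44 and -1.03, exchanged -1.45 and -1.01 for Usp7 and -1.03 and -1.45 for Usp15), as was Cdyl, a chromodomain gene whose protein links REST with H3K9 methylation (-1.23 and -1.10, exchanged -1.21 and -1.13). Prickle1, which takes part in the nuclear entry of REST, was higher (2.49 and 3.35, exchanged 3.23 and 2.62). The ubiquitin ligase gene Btrc, which marks REST for degradation, had ratios of 0.00 and -0.11 (-0.14 and 0.03 exchanged).

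The other side of the circuit was followed in 23 genes known for an RE1 element, a list drawn up from general knowledge of REST with earlier results of these data known. Of these, 11 (47.8%) held an exact core within 10000 bp of the start and 17 (73.9%) one with up to 1 mismatch, against the 0.352% and 1.60% of all protein-coding genes, which follows from how the list was drawn up. In RA-DIFF over ESC 20 of the 23 (87.0%) were higher and 0 lower in the libraries labelled wild-type, against 33.9% and 26.1% of all tested genes, with a median log2 ratio of 3.15 where all tested genes had 0.12. In those labelled Htt-null 16 (69.6%) were higher and 2 lower, against 34.3% and 24.8%, with a median of 1.86. With the labels exchanged 17 were higher and 1 lower in wild-type (median 2.05), and 19 and 0 in Htt-null (median 2.73). All 23 were tested. Of them, 6 (26.1%) were under 1 CPM in both ESC libraries and 0 in both RA-DIFF libraries, against 8.55% and 6.66% of all tested genes. The average that a gene had to pass includes the library where it is high. The AMPA receptor gene Gria2 went from 4 and 9 counts in wild-type and Htt-null ESC to 8008 and 8374 in the RA-DIFF libraries labelled wild-type and Htt-null. The secretory granule gene Chgb went from 13 and 10 counts to 5718 and 2659, and the calcium-binding protein gene Calb1 from 16 and 6 to 2330 and 623.

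Not every gene with an exact core followed. Stmn2, a neuronal microtubule regulator, measured 214 and 209 CPM in wild-type and Htt-null ESC, and 203 and 94.9 CPM in the RA-DIFF libraries labelled wild-type and Htt-null. Its log2 ratios over the RA step were -0.07 and -1.14 (-1.17 and -0.04 exchanged), so it was already high in ESC, where Rest is highest. Grin1, an NMDA receptor subunit, had 0.88 and -0.96 as labelled, past the limit in opposite directions, but -0.07 and -0.01 with the labels exchanged. Both calls of Grin1 were lost at a limit of 1. Adding edgeR's exact test at an assumed dispersion of 0.1 ended both calls of Grin1 and that of Stmn2 as labelled Htt-null.

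Between genotypes in RA-DIFF, 0 of the 23 genes were higher and 19 lower by the Htt ratio as labelled, against 11.7% and 8.99% of all tested genes, with a median of -1.07 and 22 of 23 below 0, as were 51.1% of all tested genes. With the labels exchanged 19 were higher and 0 lower. Adding edgeR's exact test at an assumed dispersion of 0.1 left 6 of the 19 lower as labelled, where 526 of all 15492 tested genes were lower and 815 higher. Among the lowest ratios were those of the synaptotagmin gene Syt4 (-2.08), Calb1 (-1.71) and the neuronal tubulin gene Tubb3 (-1.69). The library with less of these transcripts was the one with more Rest, 97.6 against 64.4 CPM. It also had the lower level of all 5 neuron genes (log2 ratios of -0.48 or lower) and the higher level of all 6 genes of connective tissue and smooth muscle (1.34 to 3.95), none of them at 0 in any library. Of other cell type markers, 4 endothelium genes summed to 77.0 against 22.5 CPM, 4 visceral endoderm genes to 13.1 against 2.54 CPM and the 5 pluripotency genes to 11.6 against 42.9 CPM, with 3 of 4, 3 of 4 and 1 of 5 higher in that library and none at 0. The part of these differences between the RA-DIFF libraries in the ratios of Rest, Rcor2, Srrm4 and the target genes was not tested. In ESC 4 of the 23 (17.4%) were higher and 2 (8.70%) lower in Htt-null cells, against 5.14% and 3.47% of all tested genes, with a median of 0.19. Those with at least 100 counts were Tubb3 (1.00), Grin1 (0.89) and Stmn3 (0.76), none of them past a limit of 1, where 1 of the 23 was higher and 1 lower. Adding the exact test at a dispersion of 0.1 left 0 higher and 1 lower, and DESeq2 size factors put Stmn3 inside the limit.

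**Figure D4:**
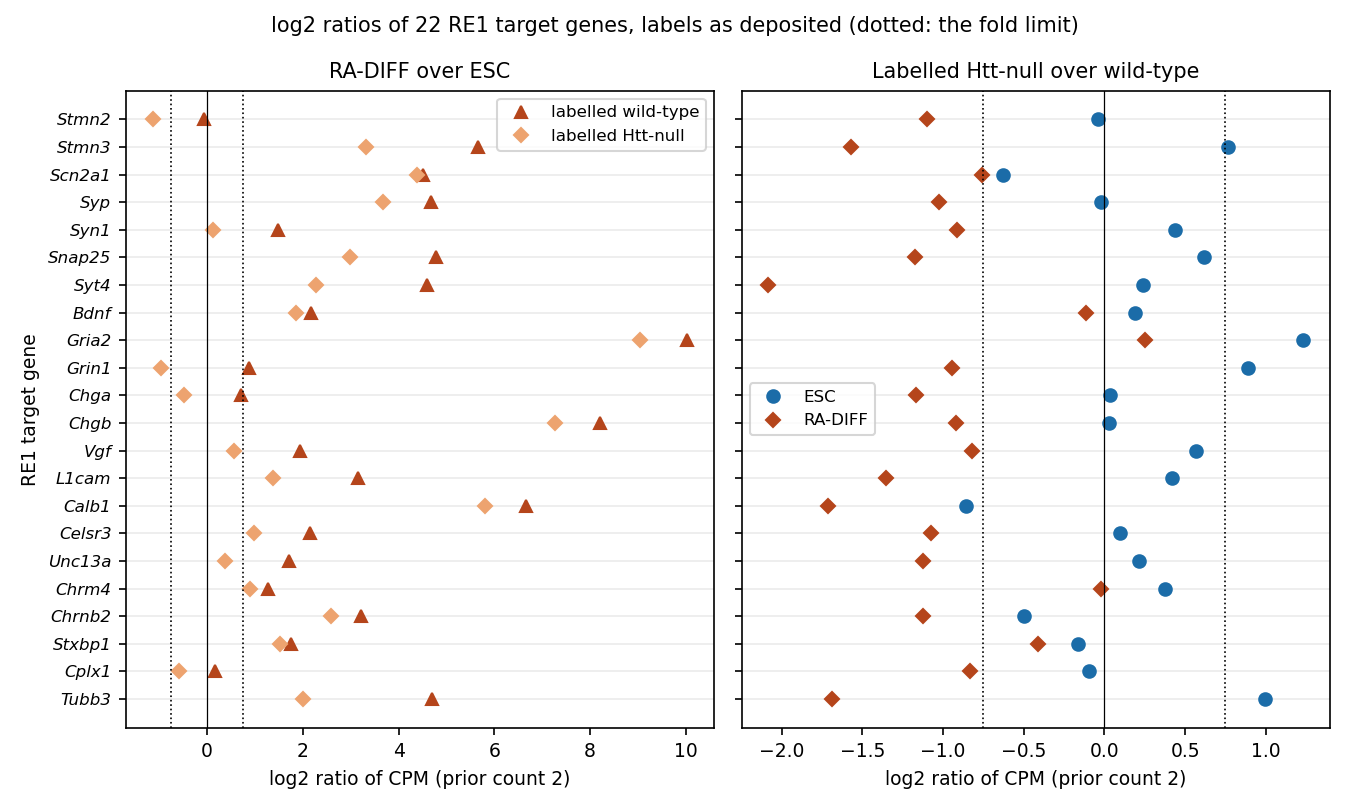
Log2 ratios of 22 of the 23 RE1 target genes for RA-DIFF over ESC (left) and for Htt-null over wild-type as labelled (right), 1 point per gene and comparison, with dotted lines at the limit of 0.75. The medians over all 23 are 3.15 and 1.86 on the left and, on the right, 0.19 (ESC) and -1.07 (RA-DIFF).

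A list chosen by sequence alone was added after the values above were seen. Of the 67 protein-coding genes with an exact core, 53 were tested, and 39 of them (73.6%) were higher and 7 (13.2%) lower in RA-DIFF over ESC in the libraries labelled wild-type, with a median log2 ratio of 2.51 and against 33.9% and 26.1% of all tested genes. In those labelled Htt-null 35 (66.0%) were higher and 12 (22.6%) lower, against 34.3% and 24.8%. With the labels exchanged 35 were higher and 10 lower in wild-type, and 38 and 5 in Htt-null. These counts describe the 53 genes and not all 67, because the average that a gene had to pass includes the library where it is high. Of the 53, 15 (28.3%) were under 1 CPM in both ESC libraries and 2 (3.77%) in both RA-DIFF libraries, against 8.55% and 6.66% of all tested genes. With no filter 45 of the 67 were higher and 9 lower as labelled wild-type, and 42 and 16 as labelled Htt-null, that is 67.2% and 13.4%, and 62.7% and 23.9%. Of all 32567 genes of the table with no filter, 31.2% were higher and 26.6% lower as labelled wild-type, and 29.4% and 30.5% as labelled Htt-null. Neither the 32567 genes nor the 15492 tested genes were limited to protein-coding genes, as the 67 were. A share over protein-coding genes alone is not given. Between genotypes in RA-DIFF 4 of the 53 (7.55%) were higher and 27 (50.9%) lower by the Htt ratio as labelled (median -0.76), where 11.7% and 8.99% of all tested genes were, and with the labels exchanged 27 were higher and 4 lower (median 0.76). In ESC 7 (13.2%) were higher and 2 (3.77%) lower (median 0.10), against 5.14% and 3.47%. Without the genes of the RE1 target list 42 remained. Over the RA step 30 (71.4%) of these were higher and 7 (16.7%) lower as labelled wild-type, and 27 (64.3%) and 10 (23.8%) as labelled Htt-null. Between genotypes in RA-DIFF 4 (9.52%) were higher and 18 (42.9%) lower as labelled. With the labels exchanged 27 of the 42 were higher and 9 lower over the RA step in wild-type, and 30 and 5 in Htt-null. The exchange made it 18 higher and 4 lower between genotypes in RA-DIFF. With 1 mismatch allowed 218 of the 304 genes were tested, with 45 of them under 1 CPM in both ESC libraries and 8 in both RA-DIFF libraries. Over the RA step 120 (55.0%) were higher and 38 (17.4%) lower in the libraries labelled wild-type, and 109 (50.0%) and 44 (20.2%) in those labelled Htt-null (exchanged, 113 and 44, and 120 and 33). With no filter 156 of the 304 were higher and 57 lower as labelled wild-type, and 141 and 78 as labelled Htt-null (51.3% and 18.8%, and 46.4% and 25.7%). Between genotypes in RA-DIFF 22 (10.1%) of the 218 were higher and 75 (34.4%) lower as labelled, against 11.7% and 8.99% of all tested genes, and the reverse with the labels exchanged.

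MicroRNAs form another arm of this circuit: miR-9 and miR-124 are held down by REST, and miR-9 is known to act on the Rest transcript. The mature sequences are printed because the seed (bases 2 to 8, in capitals) sets which transcripts can pair, and the last line is the stretch of the Rest 3′ UTR with the complement of the miR-9-5p seed in capitals. The mature sequences are from RefSeq (GRCm38). The 3p arms of miR-132 and miR-212 share a seed, and so do those of miR-29a and miR-29b.

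mmu-miR-9-5p: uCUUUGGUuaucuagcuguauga
mmu-miR-9-3p: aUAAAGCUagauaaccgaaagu
mmu-miR-132-3p: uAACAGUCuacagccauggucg
mmu-miR-212-3p: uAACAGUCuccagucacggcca
mmu-miR-29a-3p: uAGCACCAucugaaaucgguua
mmu-miR-29b-3p: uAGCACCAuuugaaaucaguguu
Rest 3′ UTR: cttttctgaggcaaACCAAAGg

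The match to miR-9-5p lies at bases 3192 to 3198 of the 3448 of the Rest 3′ UTR, and 28.2% of the 1867 UTRs that are at least as long hold these 7 letters in the same length. Rcor3 and Sin3a hold the same letters in their 3′ UTRs, where 20.4% and 9.35% of UTRs of their length do. The miR-29 letters TGGTGCT occur in those of Rest, Rcor1 and Hdac1 (30.6%, 34.7% and 5.32% of UTRs of their length), and the miR-132 and miR-212 letters GACTGTT in Rcor1 and Sin3a (28.1% and 7.82%). A match of this kind is a description and not a site.

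miR-9-5p had 695 and 797 CPM of mapped miRNA reads in wild-type and Htt-null ESC, and 7848 and 12286 CPM in the RA-DIFF libraries labelled wild-type and Htt-null. Its RA ratio was 3.50 and 3.95 by library size and 4.66 and 5.82 after TMM scaling. The median of all miRNAs over the RA step was 0.03 and -0.21 after TMM scaling but -1.11 and -2.06 by library size, so miR-9-5p was higher by either. Its other arm, miR-9-3p, had 10.2 and 12.7 CPM in ESC and 68.4 and 107 CPM in RA-DIFF. Between the RA-DIFF libraries, miR-9-5p and miR-9-3p both had log2 ratios of 0.65 by library size and 1.13 after TMM scaling, and whether the small RNA labels should be exchanged along with those of the RNA-seq libraries is not known.

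The arms of miR-124 behaved differently. miR-124-5p was higher in RA-DIFF under both scalings, with 21.3 and 43.4 CPM in ESC and 189 and 144 CPM in RA-DIFF. miR-124-3p, the arm that represses transcripts in neurons, had 122 and 157 CPM in ESC and 94.2 and 75.9 CPM in RA-DIFF, and its direction depended on the scaling, with log2 ratios of 0.79 and 0.82 after TMM scaling and -0.38 and -1.05 by library size. miR-132-3p had 9.39 and 9.94 CPM in ESC and 32.04 and 25.8 CPM in RA-DIFF, with log2 ratios of 1.76 and 1.37 by library size and 2.91 and 3.23 after TMM scaling. miR-29a-3p was lower in RA-DIFF by library size, at 41.6 and 19.1 CPM against 74.3 and 74.0 CPM in ESC, but had log2 ratios of 0.33 and -0.08 after TMM scaling.

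**Figure D5:**
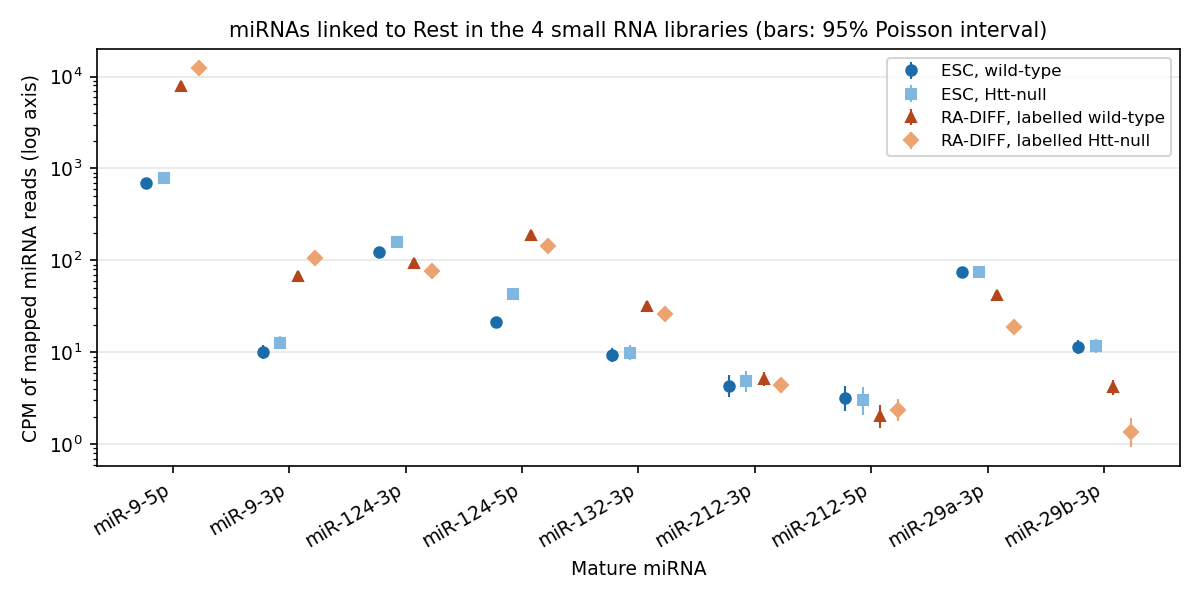
CPM of mapped miRNA reads, by library size, of 9 mature miRNAs in the 4 small RNA libraries, on a log axis, with bars for the 95% Poisson interval of the count. miR-9-5p stands at 695 and 797 CPM in ESC and at 7848 and 12286 CPM in RA-DIFF, while miR-124-3p is lower in both RA-DIFF libraries on this scale.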

How the data were processed

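RNA-seq and small RNA-seq each gave 4 libraries, 1 per condition. The authors aligned poly-A RNA reads from a strand-specific library to GRCm38 with TopHat2 2.0.14 and counted them per GENCODE gene with HTSeq 0.6.1, trimmed small RNA reads with cutadapt 1.3, mapped them to mature miRNAs with BWA 0.7.5a-r418 and kept unique matches with SAMtools 0.1.18, and deposited raw counts in both tables. Beside the counting mode the methods name default settings, which for HTSeq count by strand.

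Counts were scaled with TMM in edgeR 4.0.16 (R 4.3.3) over the 4 libraries of an assay, with a prior count of 2 on log2 CPM. A gene passed the limit when its log2 ratio was beyond 0.75 and its average log2 CPM (edgeR, which averages counts before taking the log) was above 0. Each condition being 1 library, its dispersion cannot be estimated, no additive model of stage and genotype was fitted, and no p-value is given. Intervals are 95% Poisson intervals and cover counting error only. Lengths, UTRs and overlapping genes came from GENCODE vM21, the near copy from blastn 2.17.0, and tables and figures from Python 3.11.15 with pandas 2.3.3 and matplotlib 3.10.9.

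The 9 genes, the lists of 38 and 23 genes and the miRNAs were chosen with earlier results of these data known. Of each list, those past the limit whose higher library had 100 counts or more were named, up to 4 with the largest increase and 4 with the largest decrease per comparison; Btrc, Hdac3, Hdac8, Ctbp1 and Ctbp2 values outside that rule were chosen after they were seen. Some genes that these rules name are not reported here. Genes nearest to Rest were the 5 at the smallest Euclidean distance. Calling was tested on simulated counts. Alternatives were library size and DESeq2 1.42.0 size factors, exchanged RA-DIFF labels, no filter, a limit of 1, edgeR's exact test at an assumed dispersion of 0.1 or 0.01, a prior count of 0.5 and no length correction. The sums of Hdac1 with its copy and the list of all genes with an RE1 core were added after seeing the data.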

Additional observations from a re-analysis of the deposited data

Results flagged for a closer look

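Some ratios pointed opposite ways at the 2 stages or in the 2 genotypes, and with 1 library per condition none of these differences was tested. The Htt ratio of Rest was -0.24 for ESC and 0.60 for RA-DIFF, and that of Rcor1 -0.10 and 0.23, all inside the limit and all below 0 once the RA-DIFF labels are exchanged. Among the RE1 target genes it was past the limit both ways for Stmn3 (0.76 in ESC and -1.57 in RA-DIFF), Grin1 (0.89 and -0.95) and Tubb3 (1.00 and -1.69) as labelled. With the RA-DIFF labels exchanged the values of RA-DIFF were 1.57, 0.95 and 1.69, in the same direction as in ESC. Grin1 also had RA ratios of 0.88 in the libraries labelled wild-type and -0.96 in those labelled Htt-null, which became -0.07 and -0.01 with the labels exchanged.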

How the results depend on the processing

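Scaling by library size or DESeq2 size factors moved the 36 log2 ratios of the 9 genes by at most 0.07 and 0.05, and a prior count of 0.5 by at most 0.0017, with 0 changes of sign. Exchanging the RA-DIFF labels turned the RA-DIFF ratio of Htt-null over wild-type to 1.07 for the median of the RE1 target list and to 1.10 for Rcor2. With no filter on low values the genes past the limit numbered 18836 and 19512 over the RA step (wild-type, Htt-null) and 8160 and 8588 between genotypes (ESC, RA-DIFF). A limit of 1 left 744 genes and 2 RE1 target genes between genotypes in ESC. Of the 9 genes, a limit of 1 or edgeR's exact test at an assumed dispersion of 0.1 left 1 lower over the RA step in each genotype, Rest in wild-type and Rcor2 in Htt-null, and ended the calls of Sin3a in wild-type and Rest in Htt-null; by library size Sin3a joined Rest and Rcor2 in Htt-null at -0.81. Adding that exact test at 0.1 left 0 of the 9 genes between genotypes in RA-DIFF. It left 1 and 6 RE1 target genes between genotypes in ESC and RA-DIFF, and 252 and 1341 of all genes there. Over the RA step it left 10 and 7 of the 38 genes of the machinery, for which no count of all genes under the test is given as background. A dispersion of 0.01 moved no such count by over 1.5 times. By library size the RA ratio of miR-124-3p was -0.38 (wild-type) and -1.05 (Htt-null), that of miR-212-3p -0.13 (Htt-null) and that of miR-212-5p -0.62 and -0.32 (wild-type, Htt-null), against positive values after TMM scaling. No paired analysis by replicate number was possible, since the labels carry none; a fit of stage with the line as a block, which would treat the lines as replicates and rest on the RA-DIFF labels, was not run. Counting error left the calls of Rest and Sin3a over the RA step in Htt-null undecided, a RE1 target gene with under 20 counts in ESC has an imprecise fold, and the spread between cultures is unknown throughout.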
